A study of Homo sapiens with 18 samples.

Results

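The latrophilins (LPHN1, LPHN2, LPHN3), the teneurins (TENM1 to TENM4) and the fibronectin leucine-rich transmembrane proteins (FLRT1 to FLRT3) are the receptors and ligands of one adhesion system of neurons. All 10 genes of the 3 families were taken by symbol from a table of 25369 gene symbols, where the latrophilins carry their older names (now ADGRL1, ADGRL2 and ADGRL3). The set was chosen by the lower level of LPHN3 in D458 hairpin cells in an earlier look at these data, so every value of LPHN3 that uses D458 libraries is given as a description with no test. The other 9 genes complete the families.

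D425 and D458 are established human medulloblastoma cell lines, which the labels place in Group 3, the molecular group with high MYC. All cells carried a puromycin-selected, zsGreen-marked hairpin construct. The control groups of both lines carried a non-targeting hairpin, D425 also received EYA2 hairpins 6 and 8 in separate groups, and D458 received EYA2 hairpins 7 and 8. EYA2 encodes a coactivator of sine oculis homeobox factors that also has phosphatase activity. Each of the 6 groups had 3 independent biological replicates, and polyA RNA was sequenced 24 h after sorting of the brightest 10% of cells, so no untransduced cells and no later time were measured.

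Latrophilins are adhesion G protein coupled receptors, first known as receptors of a black widow spider toxin. At synapses their extracellular part binds teneurins and FLRTs on the facing cell, and both ligands can be bound at once. Teneurins are very large single-pass proteins that also pair with each other across cells and guide neurons to matching partners. FLRTs bind UNC5 receptors as well, through which they can repel migrating neurons. In the cerebellum and cortex these proteins are known for roles in cell migration and in the choice of synaptic partners.

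The sequences just upstream of annotated starts are shown for TENM3 and TENM4, the genes that rose with every hairpin, and for LPHN3, which was lower with both hairpins in D458. Each is 250 bases on the gene's strand, from RefSeq on GRCh38.p14, written 5′ to 3′ in lower case with any searched motif in capitals. TENM3 has its first start window at chr4:182143713-182143962 (plus strand), TENM4 at chr11:79441031-79441280 (minus strand) and LPHN3 at chr4:61200076-61200325 (plus strand).
TENM3: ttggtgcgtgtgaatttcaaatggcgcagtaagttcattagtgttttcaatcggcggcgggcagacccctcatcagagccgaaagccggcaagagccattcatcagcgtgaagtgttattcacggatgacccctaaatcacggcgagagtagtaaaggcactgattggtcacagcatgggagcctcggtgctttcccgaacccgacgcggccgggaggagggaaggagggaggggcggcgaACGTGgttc
TENM4: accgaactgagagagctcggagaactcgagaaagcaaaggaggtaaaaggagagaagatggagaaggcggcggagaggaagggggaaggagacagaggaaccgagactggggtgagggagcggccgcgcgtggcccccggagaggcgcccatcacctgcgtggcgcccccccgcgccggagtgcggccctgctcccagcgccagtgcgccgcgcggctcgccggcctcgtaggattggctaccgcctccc
LPHN3: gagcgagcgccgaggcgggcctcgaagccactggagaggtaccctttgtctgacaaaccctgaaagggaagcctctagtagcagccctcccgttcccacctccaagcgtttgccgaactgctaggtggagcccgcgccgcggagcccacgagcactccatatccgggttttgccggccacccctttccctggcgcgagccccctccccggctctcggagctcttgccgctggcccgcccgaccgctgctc
These windows hold 20, 27 and 23 CpG dinucleotides and 56.8%, 69.2% and 68% G and C, beside 57.2% over all windows of the annotation. The motifs TCAGGTT (bound by sine oculis homeobox factors, the partners of EYA2), TAATCC (OTX2 and CRX), CACGTG (MYC and MAX) and ACGTG (HIF, contained in CACGTG) were searched on both strands. Among 35116 windows of all genes, 2.79% held TCAGGTT, 5.62% TAATCC, 6.34% CACGTG and 18.5% ACGTG. Windows were found for 9 of the 10 genes, 23 windows in all. Matches were 1 ACGTG in the TENM3 window shown, 1 TAATCC in a TENM1 window and 1 CACGTG with 2 ACGTG in a FLRT2 window. The other windows held none of these letters, and which start the cells use was not measured.

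The libraries held 21260369 to 31552051 counts, and levels are library-scaled counts (CPM, with TMM factors), with the SD over 3 libraries. Changes are log2 fold changes with standard errors from edgeR quasi-likelihood tests, and calls are at 0.05 after Benjamini-Hochberg adjustment over the 14850 genes tested. All 10 genes entered the test, but only LPHN1, LPHN2 and TENM3 were above the low-count cutoff in all 18 libraries. TENM4 was wholly above it in the hairpin groups alone, FLRT2 in the D425 hairpin groups alone and TENM2 in no group. EYA2 averaged 27.9 ± 14.3 CPM in D425 control, 11.9 ± 2.87 with hairpin 6 and 14.1 ± 3.01 with hairpin 8. In D458 it averaged 70.3 ± 3.16, 48.1 ± 3.43 with hairpin 7 and 20.3 ± 2.77 with hairpin 8, and the lower level with hairpin 7 did not pass (adjusted p = 0.137, 0.00692 with the replicate block). In D425 the lower EYA2 level passed (adjusted p = 0.00693 and 0.017), though hairpin 8 libraries overlapped the controls. The hairpin 8 call was lost with D425 fitted alone (0.0759) and without control replicate 1 (-0.51, 0.0865). It was also lost without hairpin 8 replicate 2 (0.0571) or 3 (0.0601), or number 2 in all groups (0.168). The hairpin 6 call was lost without number 2 (0.154) or 3 (0.0542) in all groups. Group 3 markers (MYC, OTX2, CRX, NRL, IMPG2, GABRA5, NPR3) summed to 5420 to 6220 CPM in D425 control, 4490 to 5140 with hairpin 6 and 4260 to 5010 with hairpin 8, with mean MYC at 3580, 2660 and 2450 CPM. In D458 they summed to 6280 to 6800 CPM in control, 5580 to 6440 with hairpin 7 and 5250 to 6450 with hairpin 8. Mean MYC there was 4050, 3420 and 3390 CPM. Not every marker fell. Mean IMPG2 went from 512 to 552 and 618 CPM in D425, and mean CRX from 21 to 45.7 and 46.7 CPM in D458. NPR3 was at 0 in D458 control and under 0.1 CPM on average elsewhere. Replicate 1, which has another date in the labels than replicates 2 and 3, stood apart in 5 of the 6 groups. In a chi-square test of the counts over genes it differed from replicates 2 and 3 at 12.5 to 40 per degree of freedom, against 3.64 to 10.4 between replicates 2 and 3, and in D425 hairpin 8 all pairs differed at 22.6 to 25.3. In bulk RNA, fewer cells with a transcript and less transcript per cell cannot be told apart.

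**Figure D1:**
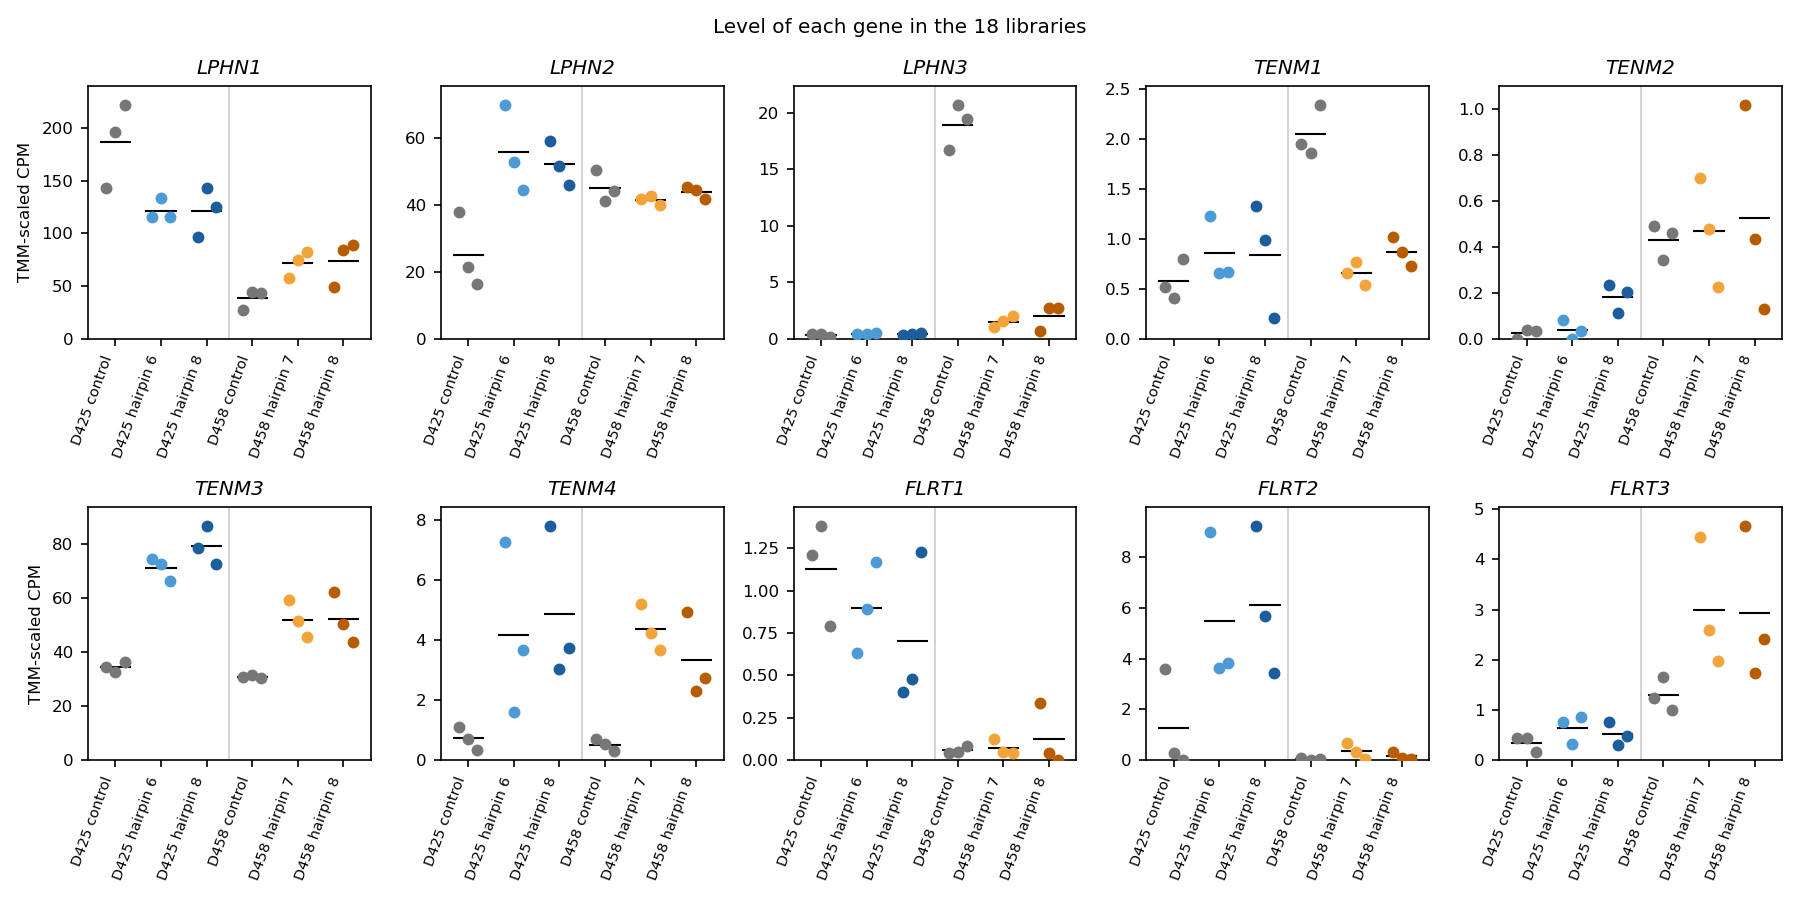
TMM-scaled CPM (linear axis from 0, own scale per gene) of the 10 genes in the 3 libraries of each of 6 groups, points in the order of replicates 1 to 3, with the group mean as a line. TENM3 and TENM4 sit higher in the hairpin groups of both lines, LPHN1 lower in D425 and higher in D458, LPHN2 higher in D425, and LPHN3 is high in the D458 control libraries alone.

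Among the receptors, the 3 latrophilins each followed a different pattern. LPHN2 rose with both hairpins in D425 and stayed near its control level in D458, LPHN1 rose with both hairpins in D458, and LPHN3 was lower with both hairpins in D458. The direction of LPHN1 was opposite in the 2 lines, although its lower level in D425 passed only in some fits.

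LPHN1, a latrophilin enriched in brain, had 143, 196 and 222 CPM in the D425 control libraries. It had 115, 133 and 115 CPM with hairpin 6 and 96.6, 143 and 125 CPM with hairpin 8. The hairpin 6 libraries all lay below the controls, whereas the highest hairpin 8 library touched the lowest control. On the log2 scale the differences were -0.63 ± 0.23 (adjusted p = 0.0831) and -0.62 ± 0.23 (adjusted p = 0.0659), and neither passed in the edgeR test. They passed with DESeq2 (adjusted p = 0.039 and 0.0309) and in a fit of the 9 D425 libraries alone (edgeR adjusted p = 0.0368 and 0.0299). With the replicate block they were -0.61 (adjusted p = 5.2e-04) and -0.62 (adjusted p = 3.1e-04). They also passed without D425 control replicate 1, at -0.79 with both hairpins (adjusted p = 0.0321 and 0.0276, edgeR).

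In D458 the same gene had 27.6, 44.5 and 43.1 CPM in control. It had 57.9, 74.3 and 82.5 CPM with hairpin 7 and 48.5, 84 and 88.9 CPM with hairpin 8, all above every control library. LPHN1 thus rose by 0.90 ± 0.24 (1.87-fold, adjusted p = 0.0152) and 0.94 ± 0.24 (1.92-fold, adjusted p = 0.0118) on the log2 scale. The hairpin 7 call was lost without D458 control replicate 1 (0.72, adjusted p = 0.0561). Without replicate number 2 or 3 in all groups, adjusted p was 0.0992 and 0.113 with hairpin 7, and 0.0992 and 0.104 with hairpin 8.

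LPHN2, a postsynaptic receptor in hippocampal neurons, had 37.9, 21.4 and 16.3 CPM in D425 control, 70.1, 52.9 and 44.5 CPM with hairpin 6, and 59.3, 51.6 and 45.9 CPM with hairpin 8. Every hairpin library exceeded every control library. It rose by 1.15 ± 0.23 (2.22-fold, adjusted p = 0.00324) and 1.06 ± 0.23 (2.09-fold, adjusted p = 0.00391) on the log2 scale. Both calls held when any single library was left out, and both ended when number 2 (adjusted p = 0.153 and 0.126) or number 3 (0.0734 and 0.0686) was left out of all groups. In D458 the control libraries had 50.4, 41.1 and 44.3 CPM, and the 6 hairpin libraries lay between 39.9 and 45.3 CPM. The D458 changes were -0.13 ± 0.22 (adjusted p = 0.714, 95% interval -0.60 to 0.35) and -0.05 ± 0.22 (adjusted p = 0.901, interval -0.52 to 0.42). Both intervals lay below the D425 estimates of 1.15 and 1.06, which have intervals of their own (0.67 to 1.63 and 0.58 to 1.53). Only hairpin 8 was used in both lines. Its effect differed between them by -1.10 ± 0.32 (edgeR adjusted p = 0.034), a call that 12 of 15 ways of leaving out a library or number ended.

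LPHN3, a receptor whose variants have been studied in attention deficit disorder, had 16.7, 20.7 and 19.4 CPM in D458 control (376, 423 and 466 counts). It had 0.987, 1.53 and 2.02 CPM with hairpin 7 and 0.677, 2.7 and 2.72 CPM with hairpin 8, at 18 to 64 counts a library. These are the values that led to the choice of the gene. The fitted levels were 12.5-fold lower (-3.65 ± 0.39) with hairpin 7 and 9.38-fold lower (-3.23 ± 0.38) with hairpin 8. LPHN3 averaged 1.51 ± 0.515 CPM with hairpin 7, where EYA2 was at 48.1 CPM, and 2.03 ± 1.17 CPM with hairpin 8, where EYA2 was at 20.3 CPM. In D425 the gene was low throughout, with 0.439, 0.373 and 0.159 CPM in control (12, 10 and 5 counts) and 0.333 to 0.511 CPM in the 6 hairpin libraries. The D425 changes of 0.43 ± 0.53 and 0.38 ± 0.53 did not pass (both adjusted p = 0.649, edgeR). Its antisense gene LPHN3-AS1 had 0 counts in all libraries.

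Levels of different genes were set side by side per kb of coding sequence, a scale on which shares depend on the length chosen. On this scale LPHN1 made up 87.3 ± 7.5% of latrophilin RNA in D425 control. Its share was 68.4 ± 5.6% with hairpin 6 and 69.4 ± 6.49% with hairpin 8, and that of LPHN2 went from 12.5 ± 7.43% to 31.4 ± 5.61% and 30.4 ± 6.51%. In D458 control the family was mixed, with 37.6 ± 7.07% LPHN1, 45 ± 7.81% LPHN2 and 17.4 ± 0.896% LPHN3. LPHN1 then held 62.2 ± 4.47% and 60.8 ± 8.27%, and LPHN3 1.21 ± 0.299% and 1.5 ± 0.718%, with hairpins 7 and 8. The family sum was 48 ± 6.59, 40 ± 3.36 and 39.3 ± 4.39 CPM per coding kb in the D425 groups (control, hairpin 6, hairpin 8). It was 22.9 ± 1.51, 25.9 ± 2.77 and 27 ± 4.92 in the D458 groups (control, hairpin 7, hairpin 8). LPHN1 came first in all groups but D458 control. There LPHN2 had the higher mean share, but the shares of LPHN2 and LPHN1 lay within their spread. In replicate 2 of that group LPHN1 was the higher (44.5 against 41.1 CPM). Scaled by exon length in place of coding length, the LPHN3 share in D458 control was 11.5%.

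**Figure D2:**
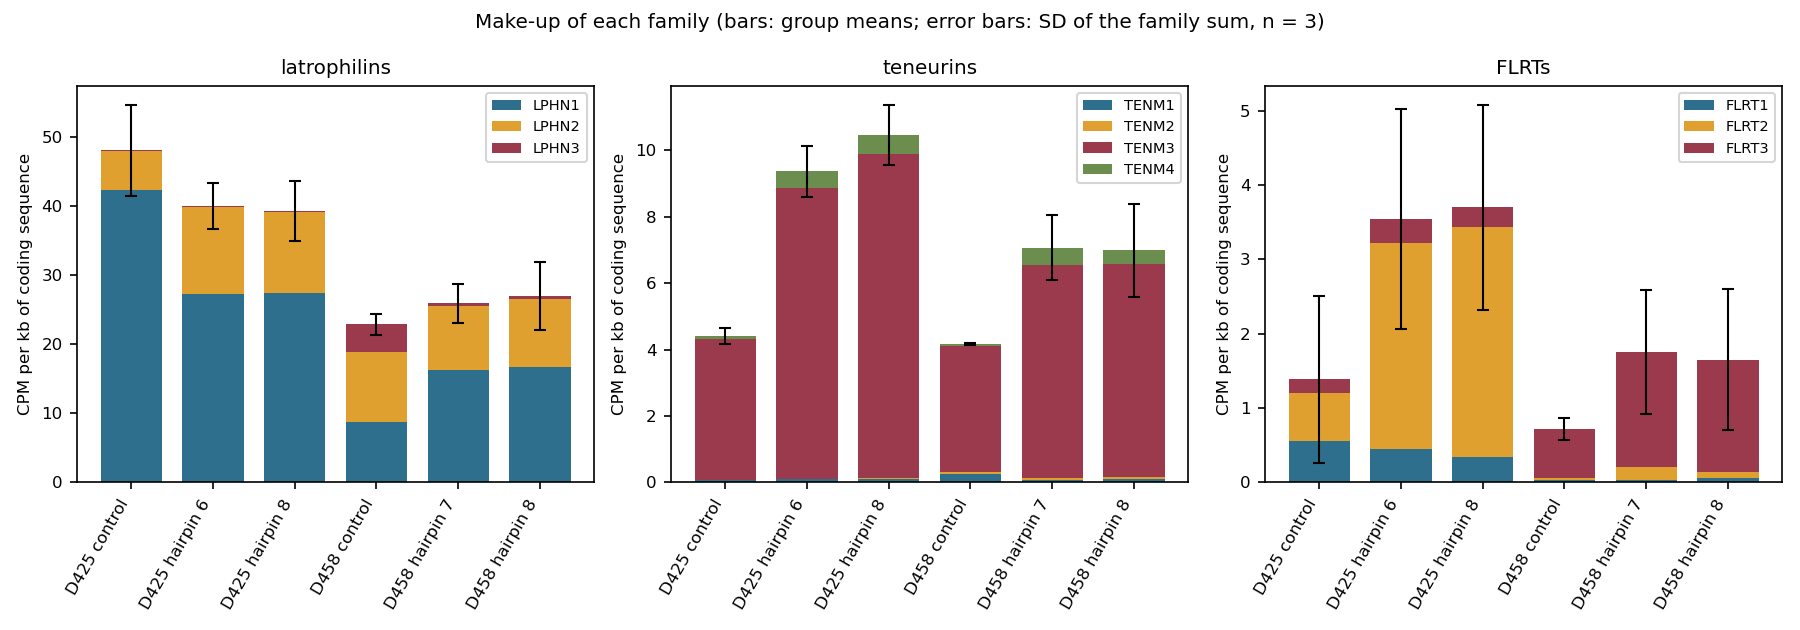
Summed level of each family in CPM per kb of longest coding sequence (linear axis from 0), stacked by gene, as means of 3 libraries in 6 groups, with the SD of the sum as error bars. The LPHN1 part shrinks in D425 and grows in D458, LPHN3 is a visible part only in D458 control, and TENM3 fills over 90% of every teneurin bar.

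Among the ligands, TENM3 and TENM4 rose with every hairpin in both lines, and of all genes tested 1.16% were called higher in all 4 hairpin comparisons. TENM3 rose 2.06-fold and 2.29-fold in D425 and 1.68-fold with each hairpin in D458. The estimated rise of the much scarcer TENM4 was more than 5-fold in each comparison, with wide intervals. TENM1 fell with hairpin 7 in D458, and TENM2 was at the edge of detection.

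TENM3, which matches retinal and hippocampal neurons to their targets, had 34.3, 32.6 and 36.4 CPM in D425 control. It had 74.3, 72.4 and 66.2 CPM with hairpin 6 and 78.2, 86.4 and 72.5 CPM with hairpin 8. The D458 control libraries had 30.7, 31.4 and 30.5 CPM, against 59.1, 51.3 and 45.4 CPM with hairpin 7 and 62.2, 50.2 and 43.5 CPM with hairpin 8. In no line did a hairpin library reach down to a control, and the controls of the lines were close to each other. TENM3 rose 2.06-fold (log2 1.04 ± 0.12, adjusted p = 6.4e-05) and 2.29-fold (1.20 ± 0.12, adjusted p = 1.5e-05) in D425. In D458 it rose 1.68-fold with both hairpins (0.75 ± 0.12 each, adjusted p = 7.0e-04 and 6.4e-04). These calls held in every left-out library and replicate number, with a highest adjusted p of 0.0474.

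TENM4, a teneurin tied to myelination and to inherited tremor, had 1.1, 0.708 and 0.349 CPM in D425 control (30, 19 and 11 counts). It had 7.24, 1.59 and 3.67 CPM with hairpin 6 and 7.78, 3.04 and 3.74 CPM with hairpin 8. In D458 it had 0.711, 0.538 and 0.292 CPM in control (16, 11 and 7 counts), 5.18, 4.22 and 3.67 CPM with hairpin 7, and 4.93, 2.3 and 2.72 CPM with hairpin 8. Groups did not overlap, and the D425 hairpin libraries were widely spread, with replicate 1 highest in both. TENM4 rose 5.82-fold (2.54 ± 0.55, adjusted p = 0.00579) and 6.80-fold (2.76 ± 0.55, adjusted p = 0.00238) in D425. In D458 it rose 8.47-fold (3.08 ± 0.59, adjusted p = 0.00242) and 6.47-fold (2.69 ± 0.59, adjusted p = 0.0052). Each call held without any single library, and none of the 4 held without replicate number 3 in all groups (adjusted p = 0.179, 0.0825, 0.0602 and 0.0754 in the same order). The D425 hairpin 6 call was also lost without number 2 (adjusted p = 0.0693).

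The sum of fibroblast and mural markers (COL1A1, COL1A2, COL3A1, DCN, LUM, PDGFRB) moved in the same direction as these teneurins, though not every marker did. Their summed level was 18.5 to 33.1 CPM in D425 control, 42.6 to 85.2 with hairpin 6 and 50.9 to 95.6 with hairpin 8. In D458 it was 6.89 to 8.44 CPM in control, 34.3 to 55.6 with hairpin 7 and 32.2 to 60.9 with hairpin 8. Mean COL1A1 went from 3.5 to 28.9 and 25 CPM in D425 and from 0.943 to 5.52 and 3.36 CPM in D458, and mean COL3A1 from 2.26 to 7.76 and 10.6 CPM in D425. In D458, mean DCN went from 1.02 to 12.2 and 11 CPM and mean LUM from 1.43 to 8.42 and 10.5 CPM. In D425, mean DCN was 0.56 CPM in control, 0.287 with hairpin 6 and 0.602 with hairpin 8, and mean LUM was 0.0124, 0.346 and 0.537. Mean COL1A2 in D458 was 0.226 CPM in control, 0.309 with hairpin 7 and 0.134 with hairpin 8. COL1A2 was at 0.134 to 0.38 CPM on average in all 6 groups, and COL3A1 was at 0 in D458 control and at most 0.096 CPM on average in the D458 hairpin groups. Mean PDGFRB went from 19.9 to 23.8 and 28.9 CPM in D425 and from 4.19 to 17.5 and 17.8 CPM in D458. The part of these markers in the teneurin result was not tested. Endothelial markers summed to 1.56 to 2.91 CPM in D425 control, 3.57 to 5.26 with hairpin 6 and 4.28 to 6.72 with hairpin 8, mainly from KDR (means of 1.98, 4.12 and 4.99 CPM), and to 1.5 to 2.8 CPM in D458. PECAM1, VWF and CDH5 were under 0.2 CPM on average in all groups, and the part of endothelial markers in the D425 result was not tested. Astrocyte and oligodendrocyte markers summed to at most 1.54 CPM, and blood and microglia markers to 3.18 to 8.85 CPM.

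TENM1, the teneurin on the X chromosome, had 1.95, 1.86 and 2.34 CPM in D458 control, 0.658, 0.767 and 0.537 CPM with hairpin 7 and 1.02, 0.869 and 0.722 CPM with hairpin 8. All hairpin libraries lay below the controls. TENM1 fell with hairpin 7 (-1.64 ± 0.47, adjusted p = 0.0202), a call that was lost without D458 control replicate 3 (adjusted p = 0.071) or without hairpin 7 replicate 1 (0.078) or 3 (0.0662). The call was also lost without number 2 (adjusted p = 0.144) or number 3 (0.081) in all groups. With hairpin 8 the difference was -1.23 ± 0.45, short of the threshold (adjusted p = 0.0581). It passed with the replicate block (-1.24, adjusted p = 0.0248), and also when D458 was fitted without the D425 libraries (-1.23, adjusted p = 0.0141). In D425 the libraries ranged from 0.204 to 1.33 CPM and overlapped (0.55 ± 0.48, adjusted p = 0.494, and 0.54 ± 0.47, adjusted p = 0.442). The gene shares 241 exon bases with STAG2, a cohesin subunit on the other strand, whose counts are far higher. STAG2 averaged 333 ± 16.7 CPM in D458 control, 268 ± 37.2 with hairpin 7 (-0.31 ± 0.10, adjusted p = 0.0378) and 281 ± 27.1 with hairpin 8 (-0.24 ± 0.10, adjusted p = 0.0951). The libraries were stranded but the strand setting of the counting is not given, so TENM1 is uncertain, and the part of STAG2 reads in its values was not tested.

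TENM2, a teneurin of forebrain synapses, was counted 0, 1 and 1 times in D425 control, 2, 0 and 1 times with hairpin 6, and 7, 3 and 6 times with hairpin 8. The sum of 16 counts against 2 in control gives a ratio of 7.9, with a counting interval of 1.86 to 70.8 that covers counting error only. The hairpin 8 difference did not pass in the edgeR test (adjusted p = 0.0629) and did with the replicate block (adjusted p = 0.0326). In D458 it had 11, 7 and 11 counts in control, 17, 10 and 5 with hairpin 7, and 27, 10 and 3 with hairpin 8. The D458 hairpin libraries spread on both sides of the controls (0.12 ± 0.62 and 0.30 ± 0.61).

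Per coding kb, TENM3 held 90.7% to 96.4% of teneurin RNA as the mean of each of the 6 groups. The teneurin sum went from 4.41 ± 0.239 CPM per coding kb in D425 control to 9.37 ± 0.767 and 10.5 ± 0.905 with hairpins 6 and 8. In D458 it went from 4.18 ± 0.0359 to 7.07 ± 0.974 and 6.99 ± 1.39 with hairpins 7 and 8. The share of TENM4 was 1.98 ± 1.04% in D425 control and 5.23 ± 3.23% and 5.58 ± 2.8% with the hairpins. In D458 it was 1.48 ± 0.603% in control and 7.39 ± 0.282% and 5.59 ± 1.39% with the hairpins. Most of the added teneurin RNA was therefore TENM3, in spite of the larger fold change of TENM4.

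The FLRT ligands were scarce, and no FLRT gene passed the edgeR test in any hairpin comparison. DESeq2 called 0 of 3 in each as well, and 1 of 3 had an unadjusted edgeR p under 0.05 in each (FLRT2 in D425, FLRT3 in D458). FLRT2 in D425 and FLRT3 in D458 had higher means with the hairpins, and FLRT1 overlapped its controls. FLRT1 and FLRT2 were counted mainly in D425, and FLRT3 was counted in both lines and higher in D458. In D425 control, FLRT2 had 98 counts in replicate 1 and 7 and 0 in the others.

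FLRT2, a ligand of UNC5D, had 98, 7 and 0 counts in D425 control, 227, 94 and 115 with hairpin 6, and 277, 155 and 101 with hairpin 8. In CPM the controls had 3.58, 0.261 and 0, against 8.98, 3.65 and 3.84 with hairpin 6 and 9.22, 5.67 and 3.44 with hairpin 8. Replicate 1 was the highest library in each of the 3 groups, and control replicate 1 stood apart from the other controls. The log2 differences were 2.11 ± 0.93 (adjusted p = 0.155) and 2.26 ± 0.93 (adjusted p = 0.0963), both short of the threshold. They passed with the replicate block (2.58, adjusted p = 0.00871, and 2.76, adjusted p = 0.00442). Without D425 control replicate 1 they were 5.43 (adjusted p = 0.00103) and 5.58 (adjusted p = 6.8e-04), against controls that then held 7 counts in all. In D458 FLRT2 had 3 counts over the control libraries, 24 with hairpin 7 and 12 with hairpin 8. Those sums give ratios of 7.93 (counting interval 2.41 to 41.2) and 3.66 (0.988 to 20.2), and neither passed in the edgeR test (adjusted p = 0.295 and 0.586).

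FLRT3, which supports synapse number through latrophilins, had 1.24, 1.66 and 1 CPM in D458 control, 4.44, 2.59 and 1.97 CPM with hairpin 7 and 4.66, 1.74 and 2.42 CPM with hairpin 8. Groups did not overlap, though the lowest hairpin 8 library was close to the highest control. The log2 differences were 1.21 ± 0.46 (adjusted p = 0.0682) and 1.18 ± 0.46 (adjusted p = 0.0733), short of the threshold, and passed with the replicate block (1.14, adjusted p = 0.0205, and 1.11, adjusted p = 0.0239). In D425 FLRT3 ranged from 0.159 to 0.447 CPM in control and from 0.293 to 0.868 CPM with the hairpins (0.91 ± 0.55, adjusted p = 0.308, and 0.58 ± 0.56, adjusted p = 0.492). The gene lies inside MACROD2 on the opposite strand with no shared exon bases. MACROD2 rose in D458 as well, from 2.53 ± 0.413 to 5 ± 0.395 and 5.1 ± 1.78 CPM (0.99 ± 0.31, adjusted p = 0.034, and 1.02 ± 0.31, adjusted p = 0.0283). With the strand setting unknown, FLRT3 is uncertain, and the part of MACROD2 reads was not tested. On chromosome 20, which holds FLRT3, the median change of 332 genes was -0.28 and -0.30 in D425 and -0.06 and -0.07 in D458. The medians of the other members' chromosomes lay between -0.07 and 0.13.

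FLRT1 had 1.21, 1.38 and 0.794 CPM in D425 control, 0.633, 0.893 and 1.17 CPM with hairpin 6 and 0.399, 0.476 and 1.23 CPM with hairpin 8. The libraries overlapped (-0.31 and -0.68, neither called). D458 held 4 counts over the control libraries, 5 with hairpin 7 and 10 with hairpin 8, of which 9 were in 1 library. FLRT1 lies opposite to MACROD1, again with no shared exon bases, and MACROD1 was called in none of the 4 comparisons.

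In all, 3 of 10 members were called with hairpin 6 in D425, where 14.1% of all genes tested were called, and 3 of 10 with hairpin 8, where 21.7% were. In D458, where LPHN3 is left out of the count, 4 of 9 were called with hairpin 7 (22.6% of all genes) and 3 of 9 with hairpin 8 (23.2%). With the replicate block, 5 and 6 of 10 were called in D425 (hairpins 6 and 8) and 5 of 9 with hairpin 8 in D458. For hairpin 7 in D458 the block added FLRT3 to the 4 calls. Of all genes tested, 4134 and 5521 were then called in D425 in place of 2101 and 3221, and 5937 and 5888 in D458 in place of 3357 and 3442. Without replicate 1 in all groups, 5, 5, 4 and 3 members were called in the order of the comparisons. That fit called 3439, 4146, 2754 and 2235 of all genes, more than the full fit in D425 and fewer in D458. In the fit without a block, calls were higher except for TENM1 with hairpin 7. TENM4 was wholly above the low-count cutoff in hairpin groups alone, so these counts and the medians are descriptions. Higher calls covered 7.31% and 11.6% of all genes in D425 and 11.5% and 12.1% in D458, and lower calls 6.84%, 10.1%, 11.1% and 11.1% in the same order. LPHN2, TENM3 and TENM4 were called higher with both hairpins of D425 (3 of 10 members, 6.48% of all genes). LPHN1, TENM3 and TENM4 were called higher with both hairpins of D458 (3 of 9 members, 9.28% of all genes). In the fit without a block, no counted member was called lower with both hairpins of a line, where 5.94% of all genes were in D425 and 8.64% in D458, or in all 4 comparisons (0.795% of all genes). With the block, LPHN1 was called lower with both hairpins of D425 and TENM1 with both of D458. The median log2 change of the members counted was 0.74, 0.82, 0.75 and 0.94 in the same order, beside 0.01 to 0.02 over all genes tested. The comparisons within a line share their 3 control libraries.

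**Figure D3:**
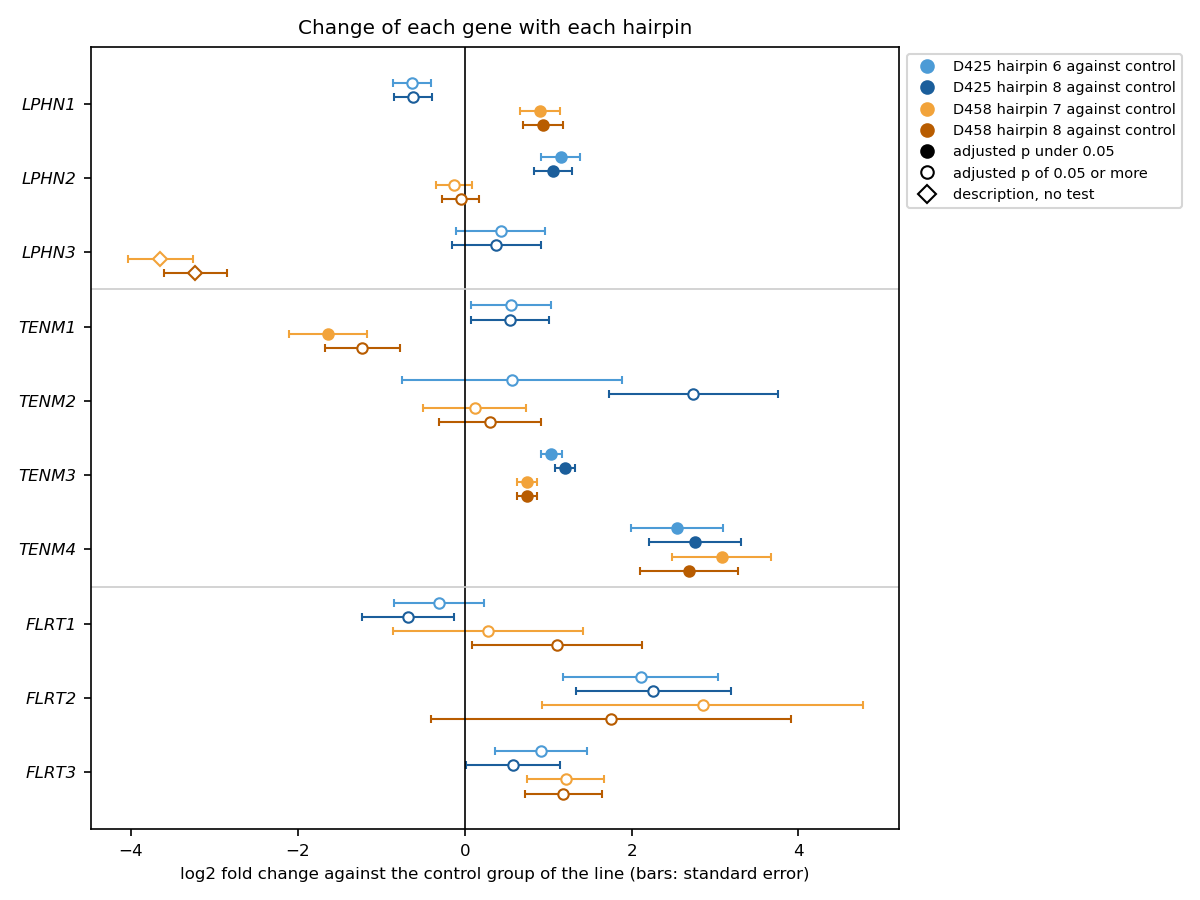
Log2 fold change against the control group of the line (linear axis) for each gene with each of 4 hairpin groups, n = 3 per group, with standard errors as bars. Filled circles passed at an adjusted p under 0.05, open circles did not, and diamonds mark LPHN3 in D458, a description with no test. TENM3 and TENM4 are filled and to the right of 0 for all 4 hairpin groups, though TENM4 was wholly above the low-count cutoff in those groups alone.

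Hairpin 8 was used in both lines, so its effect could be compared between them, although EYA2 fell by unlike amounts. EYA2 changed by -0.98 ± 0.27 in D425 and by -1.79 ± 0.27 in D458. That difference was -0.81 ± 0.38 (adjusted p = 0.177, and 0.00668 at -0.89 with the replicate block). Control EYA2 was 2.52-fold higher in D458. The part of unequal EYA2 levels in the differences that follow was not tested. LPHN1 and LPHN2 were the 2 of 9 members whose hairpin 8 effect differed between lines, where 11.8% of all genes differed (6.19% higher and 5.65% lower in D458). The effect on LPHN1 was higher in D458 by 1.57 ± 0.33 (adjusted p = 0.00781, 95% interval 0.86 to 2.27), and this call ended when number 2 (1.71, adjusted p = 0.13) or number 3 (1.40, adjusted p = 0.148) was left out of all groups. The effect on LPHN2 was lower in D458 by a log2 difference of -1.10 ± 0.32 (adjusted p = 0.034, interval -1.77 to -0.43), and 12 of 15 ways of leaving out a library or number ended that call. For TENM3 the difference was -0.45 ± 0.17 and did not pass (adjusted p = 0.092). It passed with the replicate block (-0.46, adjusted p = 0.0162) and without replicate 1 in all groups (-0.61, adjusted p = 0.0216). For TENM4 the difference was -0.07 ± 0.85 (adjusted p = 0.972), so its standard error leaves room for a difference in either direction. The difference for TENM1 was -1.77 ± 0.65 (adjusted p = 0.0875, and 0.00896 at -2.24 without D425 hairpin 8 replicate 3).

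Within a line, the hairpins could not be told apart on these genes. Hairpin 8 was compared with hairpin 6 in D425 and with hairpin 7 in D458, and edgeR called 0 members and 0% of all genes in each. At an unadjusted p under 0.05 there were 519 genes and 1 of 10 members in D425, and 274 genes and 0 of 9 members in D458. DESeq2 called 6 genes in D425 and 4 in D458.

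The control groups showed how different the lines were before any EYA2 hairpin. Of 9 members, 7 differed between the controls, where 62.8% of all genes did (31.4% higher and 31.4% lower in D458), 4 of them higher and 3 lower in D458. LPHN1 was lower in D458 (-2.28 ± 0.24, adjusted p = 7.1e-07), and LPHN2 was higher there (0.85 ± 0.23, adjusted p = 0.00379). TENM1 (1.82 ± 0.46, adjusted p = 0.00253) and FLRT3 (1.90 ± 0.53, adjusted p = 0.00509) were also higher in D458, and FLRT1 had 95 counts in D425 control and 4 in D458 control. FLRT1 was above the low-count cutoff in D425 alone, FLRT3 wholly so in D458 alone, and TENM2 and FLRT2 wholly in neither control, so the count of 7 is a description. The LPHN2 call ended without number 2 (adjusted p = 0.0821) or 3 (0.0575) in all groups, that of TENM1 without number 2 (0.0688) and that of FLRT3 without number 3 (0.0591).

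TENM2 had 29 counts in D458 control against 2 in D425 control, a ratio of 18.6 with a counting interval of 4.69 to 160 (edgeR adjusted p = 0.00137). FLRT2 had 105 counts in D425 against 3 in D458, a ratio of 27.4 with a counting interval of 9.11 to 135. The FLRT2 call (adjusted p = 0.0188) was lost without D425 control replicate 1 (log2 difference -1.36, adjusted p = 0.485), D458 control replicate 2 (adjusted p = 0.0602) or 3 (0.0572). LPHN3 was 58.6-fold higher in D458 control, as a description. TENM3 (-0.16 ± 0.12, adjusted p = 0.261) and TENM4 (-0.47 ± 0.64, adjusted p = 0.537) did not differ between controls beyond their error.

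Per coding kb in D425 control, the order of mean levels was LPHN1 (42.3), LPHN2 (5.69), TENM3 (4.25), FLRT2 (0.647), FLRT1 (0.557), FLRT3 (0.179), TENM4 (0.0865), TENM1 (0.0698), LPHN3 (0.0682) and TENM2 (0.00277). LPHN2 and TENM3 lay within their spread there, as did FLRT2 and FLRT1, and TENM4, TENM1 and LPHN3. In D458 control the order was LPHN2 (10.2), LPHN1 (8.68), LPHN3 (4), TENM3 (3.81), FLRT3 (0.669), TENM1 (0.25), TENM4 (0.0618), TENM2 (0.0517), FLRT1 (0.0291) and FLRT2 (0.022). LPHN2 and LPHN1, LPHN3 and TENM3, TENM4 and TENM2, and FLRT1 and FLRT2 were neighbours within their spread. Per kb of exon, the order changed where exons are long outside the coding part. FLRT2 was then at 0.0367 in D425 control, below FLRT1 (0.285), FLRT3 (0.0671), TENM1 (0.0444) and TENM4 (0.044), and LPHN3 at 1.35 in D458 control, below TENM3 (2.58). Per coding kb, LPHN1 led in the hairpin groups of both lines, with 27.3 and 27.4 in D425 and 16.2 and 16.7 in D458.

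Other proteins that the 3 families bind were described as a list of 12 genes, of which 8 were tested (neurexins, UNC5 receptors, FGFR1, ROBO1, DAG1 and others). Calls were 1 higher with hairpin 6 and 1 higher and 1 lower with hairpin 8 in D425, and 2 higher with each hairpin in D458. Over all genes, 14.1%, 21.7%, 22.6% and 23.2% were called in the order of the comparisons, a background that holds for each list described. List medians were 0.01, 0.11, 0.44 and 0.54 in the order of the comparisons. UNC5B, a netrin and FLRT receptor, rose in D425 from 11.6 ± 7.53 to 37 ± 10.7 and 31.1 ± 3.1 CPM (1.68 ± 0.36, adjusted p = 0.00575, and 1.43 ± 0.36, adjusted p = 0.0105). In D458 UNC5B rose with hairpin 7 (1.14 ± 0.36, adjusted p = 0.0359) and not past the threshold with hairpin 8 (0.50 ± 0.37, adjusted p = 0.34).

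FGFR1, a growth factor receptor that binds FLRTs, had 25.1 ± 1.32 CPM in D425 control, 18.6 ± 1.8 with hairpin 6 and 16.3 ± 1.44 with hairpin 8. It fell with hairpin 8 (-0.63 ± 0.18, adjusted p = 0.022), and the hairpin 6 difference was short of the threshold (-0.44 ± 0.18, adjusted p = 0.124). In D458 FGFR1 rose from 9.16 ± 0.231 to 16.5 ± 4.07 and 13.7 ± 3.95 CPM (0.85 ± 0.19, adjusted p = 0.00574, and 0.58 ± 0.19, adjusted p = 0.0359). Its signs in the 2 lines were those of LPHN1. NRXN3, a presynaptic neurexin, was called in D458 with hairpin 8 (1.44 ± 0.45, adjusted p = 0.0287), at 0.524 ± 0.32 CPM in control and 1.41 ± 0.93 with the hairpin.

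Of 13 genes for signalling below latrophilins, 11 were tested. None was called in D425 by edgeR, where 0 and 5 had an unadjusted p under 0.05 with hairpins 6 and 8 and DESeq2 called 0 and 3. In D458, 2 were higher and 2 lower with hairpin 7, and 1 higher and 2 lower with hairpin 8, with list medians of -0.01 and -0.08. GNAQ, a G protein alpha subunit, rose from 5.31 ± 0.845 CPM to 16.5 ± 1.4 and 19.9 ± 2.78 (1.64 ± 0.39, adjusted p = 0.00889, and 1.91 ± 0.39, adjusted p = 0.0037). Its close relative GNA11 fell slightly in D458, from 149 ± 5.25 to 116 ± 5.53 and 115 ± 6.6 CPM (both -0.36 ± 0.07, adjusted p = 0.0025 and 0.00246). GNA12, another alpha subunit, fell by 0.30 ± 0.10 with each hairpin (adjusted p = 0.0417 and 0.0419). GNAS, the stimulatory subunit, rose with hairpin 7 (0.16 ± 0.05, adjusted p = 0.0403).

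Of 29 other adhesion G protein coupled receptors, 11 were tested. Calls were 1 higher and 2 lower, then 2 and 2, in D425 (hairpins 6 and 8), and 2 and 3, then 0 and 2, in D458 (hairpins 7 and 8). CELSR3, a planar polarity cadherin of growing axons, fell in all 4, from 108 ± 13.1 to 70.8 ± 8.46 and 82.1 ± 6.25 CPM in D425 and from 72.8 ± 4.23 to 52.2 ± 1.55 and 48.8 ± 1.61 CPM in D458. Its log2 changes were -0.60, -0.39, -0.48 and -0.58, with adjusted p of 8.1e-04, 0.00892, 0.00353 and 0.00104. CELSR2 of the same family fell in D458 (-0.53 and -0.36, adjusted p = 0.0019 and 0.0154). GPR56, a receptor needed for cortical layering, rose in D425 from 0.496 ± 0.419 to 2.35 ± 1.27 and 2.47 ± 0.37 CPM (2.26 ± 0.52, adjusted p = 0.00794, and 2.33 ± 0.52, adjusted p = 0.00476). GPR98, a very large receptor of sensory cells, rose with hairpin 8 in D425 (1.05 ± 0.16, adjusted p = 3.6e-04).

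Other synaptic adhesion organisers formed the list with the most calls in D458. Of 27 genes 16 were tested, and 9 were called higher with each hairpin in D458 and 1 with each hairpin in D425, with none lower. Over all genes, 11.5% and 12.1% were called higher in D458 and 7.31% and 11.6% in D425. List medians were 0.70 and 0.69 in D458, and -0.01 and 0.14 in D425. Some called genes had few counts in D458 control, such as NLGN1 with 2. Where list genes lay against the low-count cutoff in each group was not tested. The counts of calls and the medians of each list are therefore descriptions. The difference of the hairpin 8 effect between lines was called for 2 of the 16 genes, near the share of 11.8% over all genes. CADM1, a homophilic adhesion protein, was the gene called in both lines, with rises of 0.80 and 0.88 in D425 (adjusted p = 0.00786 and 0.00313) and 0.56 and 0.66 in D458 (adjusted p = 0.0373 and 0.0181).

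NLGN1, a neuroligin of excitatory synapses, had 2 counts over the D458 control libraries. It averaged 0.963 ± 0.214 CPM with hairpin 7 and 0.907 ± 0.472 with hairpin 8, ratios of 32.2 (counting interval 8.57 to 272) and 31.1 (counting interval 8.29 to 262) (adjusted p = 1.5e-04 and 1.8e-04). SLITRK2, a postsynaptic organiser, rose from 1.95 ± 0.392 to 7.46 ± 0.436 and 6.93 ± 0.961 CPM in D458 (adjusted p = 0.00479 and 0.00633). IL1RAP, a partner of presynaptic phosphatases, rose there from 1.01 ± 0.15 to 4.71 ± 2.09 and 4.64 ± 3.35 CPM (adjusted p = 0.00378 and 0.00368).

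**Figure D4:**
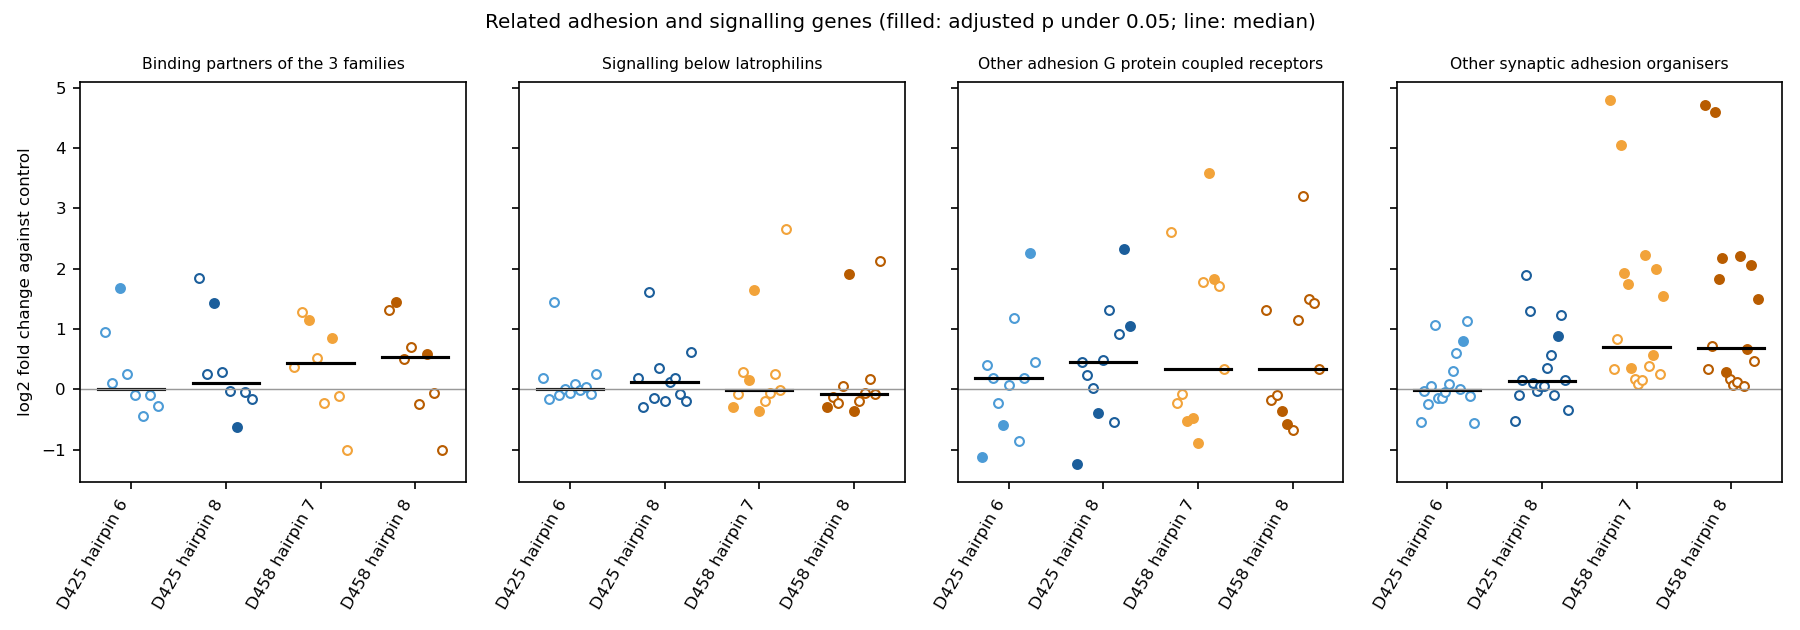
Log2 fold change against control (linear axis) of the tested genes of 4 related lists in each hairpin comparison, n = 3 libraries per group, with the list median as a line and genes at an adjusted p under 0.05 filled. The synaptic adhesion organisers in D458 hold 9 filled points per hairpin, all above 0.

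The genes whose pattern was most like that of a member were ranked by Pearson's r of log2 CPM over the 18 libraries, after the mean of each line was taken off, among 12738 genes. The libraries share their lines, controls and hairpins, so the r values are descriptions. RCOR2 (r = 0.97), CILP (0.96) and EFCAB4B (0.96) were nearest to LPHN3. CILP, a cartilage matrix protein, averaged 41 CPM in D458 control, 0.255 with hairpin 7 and 0.455 with hairpin 8, and at most 0.0847 in the D425 groups. GALK1 (0.92), PAPLN (0.91) and SOX21 (0.90) were nearest to LPHN1. GATA4, SYP and NELL2 (0.97 each) were nearest to LPHN2, with SYP, a synaptic vesicle protein, at 32.7, 78.8 and 92.7 CPM in the D425 groups and 178, 161 and 169 in the D458 groups. TPMT (0.96), SCARB2 (0.95) and ACSL6 (0.94) were nearest to TENM3, and SCARB2, a lysosomal membrane protein, went from 99.7 to 216 and 237 CPM in D425 and from 203 to 335 and 344 CPM in D458. PDE6B (0.96) and TPM1 (0.95) were among the nearest to TENM4, and PDE6B, a photoreceptor phosphodiesterase, went from 1.47 to 7.93 and 9.33 CPM in D425 and from 10.1 to 50.4 and 49.2 CPM in D458.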

How the data were processed

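PolyA RNA of 18 libraries (6 groups of 3) was measured. The deposited table holds whole-number read counts per gene symbol with no normalization. Per the submitters' processing notes, TopHat2 and Bowtie2 (alignment tools), HTSeq (a read counter), Picard, SAMtools, FastQC and bcl2fastq are named, with the builds GRCh37 and hg19, and libraries were stranded per the labels' protocols. Whether counting used strand, how multi-mapping reads were treated and all versions were not stated there. Per the same protocols, transduced cells were held in puromycin (1 µg/mL, 48 h) before the sort.

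Counts of 21260369 to 31552051 per library were analysed in R 4.3.3 with edgeR 4.0.16 and limma 3.58.1. filterByExpr (minimum count 10) kept 14850 genes and removed 10519. TMM factors lay between 0.94 and 1.1. One robust quasi-likelihood model with 6 group coefficients was fitted (12 residual degrees of freedom, biological coefficient of variation 0.153). Benjamini-Hochberg adjustment ran over all genes tested, and adjusted p values come from this fit unless another is named. Counting intervals are exact at 95% and cover counting error only. The code was tested on simulated counts.

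There were 8 comparisons: each hairpin with control, the hairpins of a line, the controls, and the hairpin 8 effect between lines. Alternatives were other size factors, no filter, DESeq2 1.42.0, a line alone, a replicate block and left-out libraries or numbers. Members, lists and tests were chosen with earlier results of these data known. The text names all members, EYA2, genes that overlap a member, up to 4 called genes per list by smallest adjusted p, and the 3 genes most like LPHN3 or a member called with both hairpins of a line (mean CPM at least 1, prior count 2). A gene that this rule names is not reported here.

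Within a line, libraries with the same replicate number share a code and a date in the labels, and numbers 2 and 3 share the date. What the code stands for is not stated there. After removal of group means, same-numbered libraries correlated at 0.13 to 0.70 in D458, all over 0.1, and at 0.08 to 0.61 in D425. The fit used for calls has no block, and the blocked value is given beside results that it changes. Lengths and overlaps come from a GENCODE annotation of GRCh38, a later build than that of the counts.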

Additional observations from a re-analysis of the deposited data

Results flagged for a closer look

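LPHN1 and LPHN2 stood out because the effect of the same hairpin differed between the lines. With hairpin 8, the log2 change of LPHN1 was 1.57 higher in D458 than in D425, and that of LPHN2 differed by -1.1. LPHN1 changed by 0.94 in D458 and -0.62 in D425, and LPHN2 by -0.05 and 1.06. The signs of LPHN1 were opposite, though its lower level in D425 did not pass in the edgeR fit (adjusted p = 0.0659). LPHN2 was near its control level in D458. The LPHN1 difference was not called without number 2 or 3 in all groups (adjusted p = 0.13 and 0.148). The LPHN2 call (adjusted p = 0.034) ended in 12 of 15 ways of leaving out a library or number. It also ended without the low-count filter (0.0648). Of all genes, 11.8% differed between lines with this hairpin. EYA2 itself changed by -1.79 in D458 and -0.98 in D425 with this hairpin.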

How the results depend on the processing

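With the replicate block within each line, 4134 and 5521 genes and 5 and 6 members were called in D425 (hairpins 6 and 8). In D458, 5937 and 5888 genes were called, with 5 members for hairpin 8 and FLRT3 added to the members called for hairpin 7. The block gave 3934 genes for the hairpin 8 difference and 1 gene for hairpin 8 against 7 in D458. It changed no other call of a member than those given with the results. In D425, 7 of 9 libraries correlated best with a library of their own number, and 8 of 9 did in D458. Without the low-count filter 1 member differed between lines. For hairpin against hairpin, where counts alone were recomputed, DESeq2 called 6 genes in D425 and 4 in D458, and a fit of the line alone 2 in D458.

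Leaving out libraries or replicate numbers gave 116 to 3439 genes and 1 to 5 members (D425 hairpin 6), 513 to 4146 and 1 to 5 (D425 hairpin 8), 663 to 2910 and 1 to 4 (D458 hairpin 7), 818 to 3311 and 1 to 4 (D458 hairpin 8), 7182 to 9474 and 4 to 7 (controls), and 75 to 2322 and 0 to 3 (difference). Hairpin 8 against 6 in D425 gave 0 to 16 genes. Without replicate 1 in all groups 3439, 4146, 2754 and 2235 genes were called with the 4 hairpins, and without number 2 or 3 between 116 and 918. The cause was not tested. The sign turned within these ranges for TENM2 (-0.78 to 1.45), LPHN3 (-0.15 to 0.82) and TENM1 (-0.05 to 1.32) in D425, and for TENM2 (-0.28 to 0.53 and -0.6 to 0.83), FLRT1 (-0.5 to 0.87 and -1.45 to 2) and LPHN2 (-0.09 to 0.05) in D458. It also turned for the differences of TENM4 (-0.51 to 0.44), FLRT1 (-1.13 to 3.55) and FLRT2 (-3.84 to 0.37). None of these was called in the full fit. Depth limits TENM2, FLRT1 in D458 and FLRT2 in D458, which have few counts.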
